A study of Rattus norvegicus with 6 samples.

Results

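The xenobiotic metabolism enzymes are the cytochrome P450s (Cyp), glutathione transferases (Gst), sulfotransferases (Sult), UDP-glucuronosyltransferases (Ugt) and aldehyde dehydrogenases (Aldh). They were chosen by gene symbol among probe sets that map to exactly 1 gene, without Cyp51 and Aldh3a1, and each gene was represented by its probe set with the highest mean signal over the 6 arrays. This gave 40 genes of the 2890 with such a probe set: 16 Cyp, 8 Gst, 6 Sult, 6 Aldh and 4 Ugt genes. A probe set is a group of short oligonucleotides on the array that together read the RNA of a gene. The chosen probe sets of 18 of the 40 carry a name ending that marks probes that match similar transcripts or were chosen by relaxed rules, so close family members may contribute to their signal.

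The study measured RNA from rat fibroblasts in culture on 6 Affymetrix arrays. FE8, a fibroblast line transformed by the HRAS oncogene, was treated with 5-aza-2'-deoxycytidine, an inhibitor of DNA methylation, at 0.3 µM for 96 h (2 arrays) or left untreated (1 array). The immortal, non-transformed fibroblast line 208F was treated in the same way (2 arrays) or left untreated (1 array). FE8 was the only transformed line, no probe set named Hras was in the table, and an effect of the oncogene and any further difference of the lines cannot be told apart. Both untreated arrays were of 1 chip lot and run day, and the 4 treated arrays were of 2 other lots and run days, so the drug cannot be told apart from the run. The labels do not say whether the duplicates came from separate cultures.

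Array medians lay between 354 and 422, and the treated duplicates correlated across probe sets at 0.969 in FE8 and 0.959 in 208F. The ratio of 5' to 3' signal for beta-actin, a measure of RNA length, was 0.405 and 0.384 in treated FE8, 0.351 in untreated FE8, 0.529 and 0.456 in treated 208F and 0.824 in untreated 208F. The same ratio for GAPDH was 1.13 and 1.07 in treated FE8, 0.691 in untreated FE8, 1.13 and 1.01 in treated 208F and 0.916 in untreated 208F. Fibroblast markers were present, with 9 of 10 measured and summed signals of 48502 to 54758 in treated FE8, 59029 in untreated FE8, 69152 to 92442 in treated 208F and 107953 in untreated 208F. Of the 9, 4 passed the test as lower in FE8 in both line comparisons: Col1a1, Col1a2, Col3a1 and Fn1. Of all probe sets, 2.82% were called lower without the drug and 3.65% with it. The type I collagen chain Col1a1 was at 131 in untreated FE8, against 22282 in untreated 208F. Of 10 hepatocyte markers 3 were measured, none passed the test in any comparison, and their sums were 422 to 640 in treated FE8, 499 in untreated FE8, 543 to 686 in treated 208F and 571 in untreated 208F. Of 6 macrophage markers 1 was measured and did not pass the test, and none of 6 steroidogenic markers was measured. Of 8 epithelial markers 3 were measured, Krt8, Krt18 and Epcam, with sums of 4345 to 4418 in treated FE8 and 145 in untreated FE8, and of 3039 to 3458 in treated 208F and 168 in untreated 208F.

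These enzymes handle foreign compounds and many of the body's own lipids in successive steps. Cytochrome P450s insert oxygen into steroids, fatty acids, retinoids and drugs, and aldehyde dehydrogenases oxidize reactive aldehydes. Transferases then couple glutathione, sulfate or glucuronic acid to the products, which makes them more soluble and easier to export. Most of the families are best known from liver, and the aryl hydrocarbon receptor and the factor NRF2 are classical inducers of some members.

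Many of the enzymes were dim in these fibroblasts. Of the 40, 12 stayed under a signal of 200 on all 6 arrays, 13 were at 200 or more on all 6, and 15 lay on both sides. Differences below are given as the log2 of signal plus 64, with the standard error of a limma fit over all 4818 probe sets, and a call means a Benjamini-Hochberg adjusted p under 0.05 over all of them. The added 64 makes the log2 difference of a dim gene smaller than that of its signals. The untreated groups had 1 array each, so the error of every comparison comes from the treated duplicates. In cultures measured in bulk, fewer cells that express a gene and less RNA per cell cannot be told apart.

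**Figure D1:**
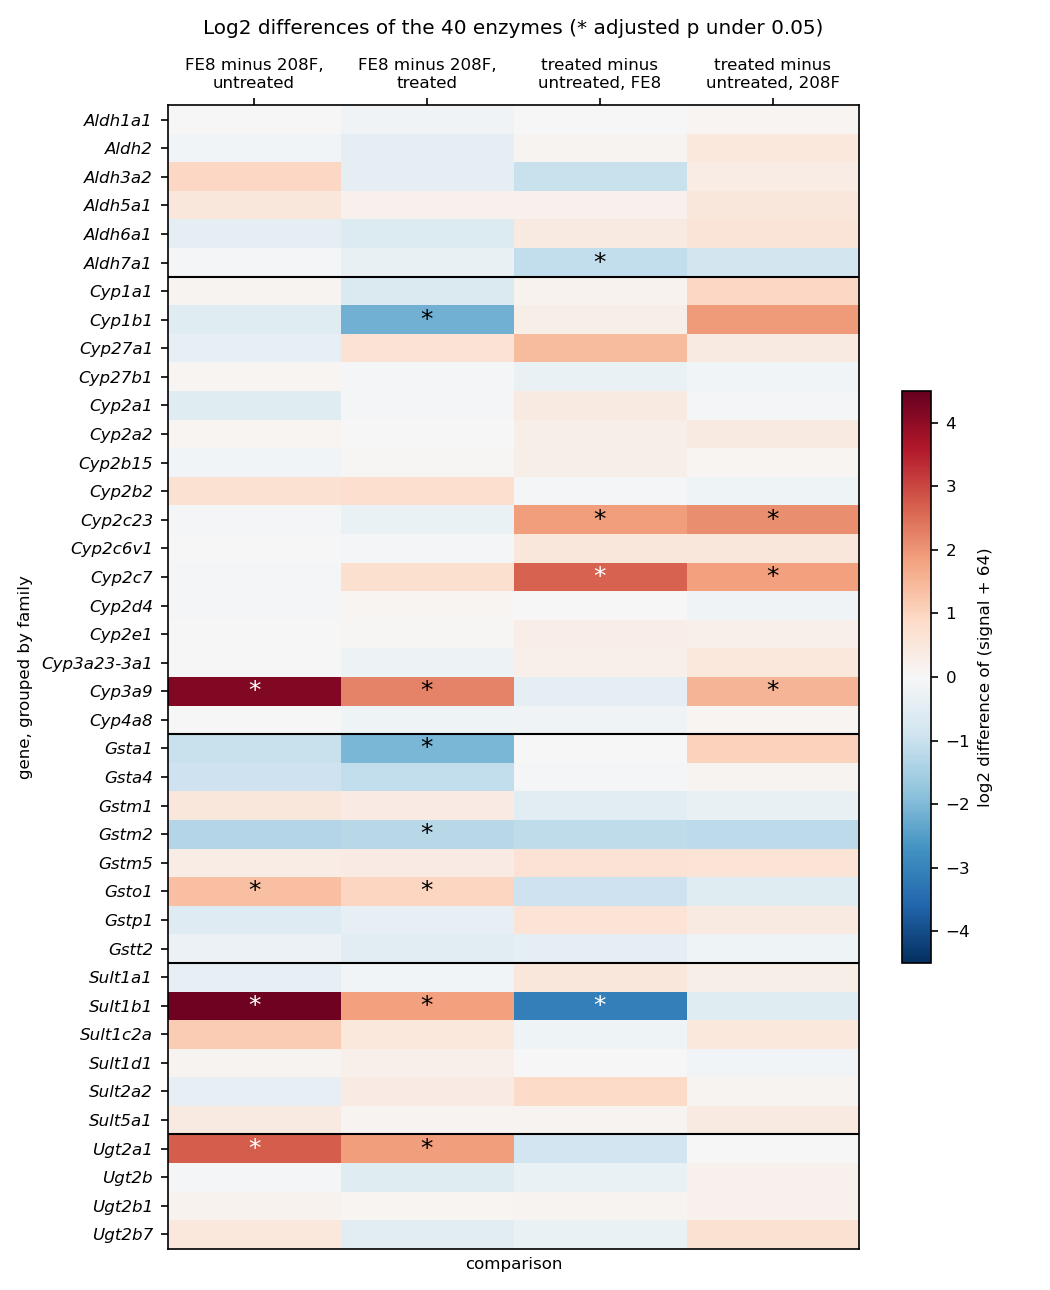
Log2 differences of the 40 enzymes in the 4 comparisons, with genes down the page by family and 1 column per comparison. Red is higher and blue is lower in the group named first, and an asterisk marks an adjusted p under 0.05. The strong colours sit in few genes, with Cyp3a9, Sult1b1, Ugt2a1, Cyp2c7, Cyp1b1, Cyp2c23 and Gsta1 each past 2 in size in at least 1 column, and 26 of the 40 genes stay under 1 in size in every column.

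The first question was how the transformed line differed from the immortal one without the drug. 4 enzymes of 4 families were higher in untreated FE8 than in untreated 208F: the P450 Cyp3a9, the sulfotransferase Sult1b1, the glucuronosyltransferase Ugt2a1 and the glutathione transferase Gsto1. No member was called lower by its chosen probe set, while the other probe set of Gstm2 was (-1.96 ± 0.35, adjusted p = 0.00657). These 4 were 10% of the members, against 5.92% of all 4818 probe sets called in this comparison (3.09% higher and 2.82% lower). The median difference was -0.01 over the members and 0.02 over all probe sets.

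Cyp3a9 encodes a P450 of the subfamily that hydroxylates steroids and many drugs. Its signal was 2461 in untreated FE8 and 75 in untreated 208F, a log2 difference of 4.18 ± 0.40 (adjusted p = 9.57e-05). On the treated arrays it was 1789 and 1836 in FE8, against 250 and 449 in 208F, a difference of 2.22 ± 0.28 (adjusted p = 0.000478). Every FE8 array was above every 208F array, and the 208F arrays were spread more widely than the FE8 arrays. The other measured gene of its subfamily, Cyp3a23-3a1, lay between 139 and 345 on all arrays and was not called.

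Sult1b1 encodes a cytosolic sulfotransferase that acts on phenols and thyroid hormones. It stood at 2098 in untreated FE8 and 41 in untreated 208F, 4.36 ± 0.55 apart (adjusted p = 0.000693). Treated FE8 gave 110 and 314, against 12 and 4 in treated 208F, a difference of 1.83 ± 0.39 (adjusted p = 0.0141). The line groups did not overlap, but the 2 treated FE8 arrays were far below the untreated one. Its next neighbour in the genome, Ugt2a1, encodes a glucuronosyltransferase known from the olfactory epithelium. Ugt2a1 was at 795 in untreated FE8 and 65 in untreated 208F (2.74 ± 0.43, adjusted p = 0.00308). It was at 431 and 397 in treated FE8, against 83 and 51 in treated 208F (1.88 ± 0.31, adjusted p = 0.00268), so that all FE8 arrays were again above all 208F arrays.

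These 2 genes lie in a row of members in the RefSeq gene order of the rat assembly GRCr8: Sult1d1, Sult1b1 and Ugt2a1 are adjacent with 0 protein-coding genes between them, and Ugt2b, Ugt2b7 and Ugt2b1 follow after 2, 4 and 2 further genes. Sult1d1 on the near side was at most 56 on any array and differed by 0.13 ± 0.52 between the untreated lines. Ugt2b, the member after Ugt2a1, was at 349 and 285 in treated FE8 and 404 in untreated FE8, against 575 and 408 in treated 208F and 419 in untreated 208F. Its line differences were -0.05 ± 0.41 without and -0.53 ± 0.29 with the drug. Ugt2b7 and Ugt2b1 differed by 0.47 ± 0.51 and 0.17 ± 0.48 without the drug. The calls in this row were those of the neighbours Sult1b1 and Ugt2a1.

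**Figure D2:**
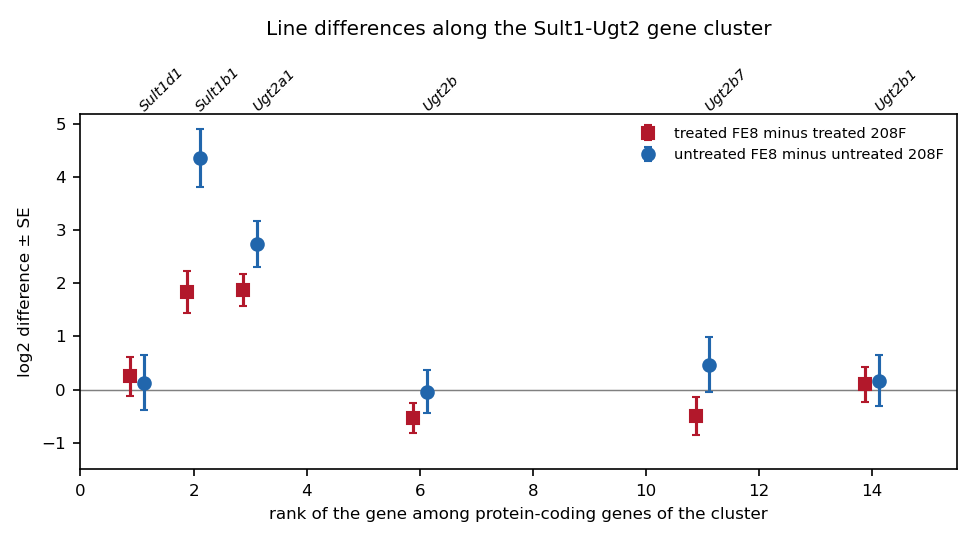
Log2 differences between FE8 and 208F for the 6 members in the row of Sult and Ugt genes, in gene order, without and with the drug, with bars of 1 standard error. Sult1b1 and Ugt2a1 stand at 4.36 and 2.74 without the drug and at 1.83 and 1.88 with it, while the other 4 members lie between -0.53 and 0.47.

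Gsto1 encodes an omega-class glutathione transferase that also reduces arsenic compounds. It was at 3576 in untreated FE8 and 1372 in untreated 208F (1.34 ± 0.34, adjusted p = 0.0399). It was at 1812 and 1909 in treated FE8, against 779 and 1113 in treated 208F (0.95 ± 0.24, adjusted p = 0.0351). All FE8 arrays were above all 208F arrays. Its other probe set differed by 2.06 ± 0.37 without the drug (adjusted p = 0.00684) and by 0.95 ± 0.26 with it (adjusted p = 0.0526). The untreated-line calls of Cyp3a9, Sult1b1 and Ugt2a1 held under each of the 11 alternative settings, while that of Gsto1 was lost without treated FE8 replicate 1 (adjusted p = 0.193) or 2 (0.190), with quantile normalization (0.0668), no trend (0.112) and only probe sets with a mean signal of 200 or more (0.0535). The beta-actin ratio moved with the lines, as given above, and its part in these differences was not tested.

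The lines were then compared under the drug. The signals come from other arrays than those of the untreated pair, but the treated duplicates give the error of both comparisons, so the 2 sets of calls are not independent. The same 4 genes were higher in treated FE8, and 3 others were lower: Gsta1 and Gstm2, both glutathione transferases, and the P450 Cyp1b1. Together they were 17.5% of the members, against 7.08% of all probe sets (3.42% higher and 3.65% lower). The median difference was -0.06 over the members and -0.00 over all probe sets. By family, 3 of 8 Gst, 2 of 16 Cyp, 1 of 6 Sult, 1 of 4 Ugt and 0 of 6 Aldh genes were called.

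Gsta1 encodes an alpha-class glutathione transferase that also handles lipid peroxides. It was at 25 and 71 in treated FE8, against 386 and 389 in treated 208F, a difference of -2.04 ± 0.33 (adjusted p = 0.00268). The untreated arrays gave 45 in FE8 and 155 in 208F (-1.01 ± 0.47, adjusted p = 0.341), so all FE8 arrays were below all 208F arrays. Its other 2 probe sets were also lower in treated FE8, by -2.46 ± 0.33 and -1.92 ± 0.39 (limma adjusted p = 0.00076 and 0.0113). All 3 carry a name ending that marks probes matching similar transcripts, so close family members may contribute to each. Gsta4, a relative that conjugates hydroxynonenal, was at 103 and 54 in treated FE8 and 208 and 278 in treated 208F, -1.12 ± 0.33 apart and not called (adjusted p = 0.0755). The other probe set of Gsta4 was called lower, at -1.58 (adjusted p = 0.0109).

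Gstm2 encodes a mu-class glutathione transferase. It was at 384 and 206 in treated FE8, against 806 and 726 in treated 208F (-1.25 ± 0.29, adjusted p = 0.0232). Without the drug it was at 695 in FE8 and 1820 in 208F (-1.31 ± 0.41, adjusted p = 0.103), and its other probe set was called lower there at -1.96 ± 0.35 (adjusted p = 0.00657). In both lines the treated arrays were below the untreated one. Its direct genome neighbour Gstm1 was not called in any comparison, at 767 and 892 in treated FE8, 1167 in untreated FE8, 740 and 527 in treated 208F and 806 in untreated 208F, with line differences of 0.50 without and 0.37 with the drug. The other probe sets of Gstm1 were not called either, at 0.77 and 0.96 between the treated lines. After the drug in FE8 they stood at 0.41 and 0.34, against -0.47 for the chosen one, so the probe sets disagreed there.

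Cyp1b1 encodes a P450 that oxidizes estrogens and polycyclic hydrocarbons and is expressed outside the liver. It was at 75 and 18 in treated FE8, against 183 and 874 in treated 208F, a difference of -2.17 ± 0.54 (adjusted p = 0.0341). The untreated arrays gave 24 in FE8 and 65 in 208F. The 2 treated 208F arrays differed widely from each other, and they were of different lots. Of its 3 other probe sets, 2 were called lower in treated FE8, at -1.73 ± 0.39 and -2.39 ± 0.39, and the last stood at -0.46 ± 0.36. The dim relative Cyp1a1 was at 31 and 14 in treated FE8, 14 in untreated FE8, 14 and 173 in treated 208F and 8 in untreated 208F, with its high value on the same 208F array as that of Cyp1b1.

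Within lot 3, that is without treated 208F replicate 1, Cyp3a9 stood at 1.87, Sult1b1 at 1.92, Ugt2a1 at 2.05 and Gsto1 at 0.71. Gsta1 stood at -2.05, Gstm2 at -1.18 and Cyp1b1 at -3.14. Only 1 treated 208F array was left in that fit, so its error came from the FE8 duplicates alone. Gsto1 lost its call there. Calls in this comparison rested on few arrays: without treated 208F replicate 2, Cyp1b1 stood at -1.21 (adjusted p = 0.0751). Without treated FE8 replicate 1, Ugt2a1 (adjusted p = 0.0582), Gsto1 (0.300), Gsta1 (0.0575), Gstm2 (0.0523) and Cyp1b1 (0.189) were lost. Without treated FE8 replicate 2, Cyp3a9 (0.0503), Sult1b1 (1.28, 0.191), Ugt2a1 (0.0635), Gsto1 (0.370), Gstm2 (0.323) and Cyp1b1 (0.432) were lost. Cyp1b1 was also lost with quantile normalization (0.0543), the larger pseudocount (0.0598), no trend (0.0530), only probe sets with a mean signal of 200 or more (0.0792) and the duplicate number as a block (0.108), Gsto1 with no trend (0.0936) and that filter (0.0528), and Sult1b1 with the larger pseudocount (0.79, 0.0609).

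**Figure D3:**
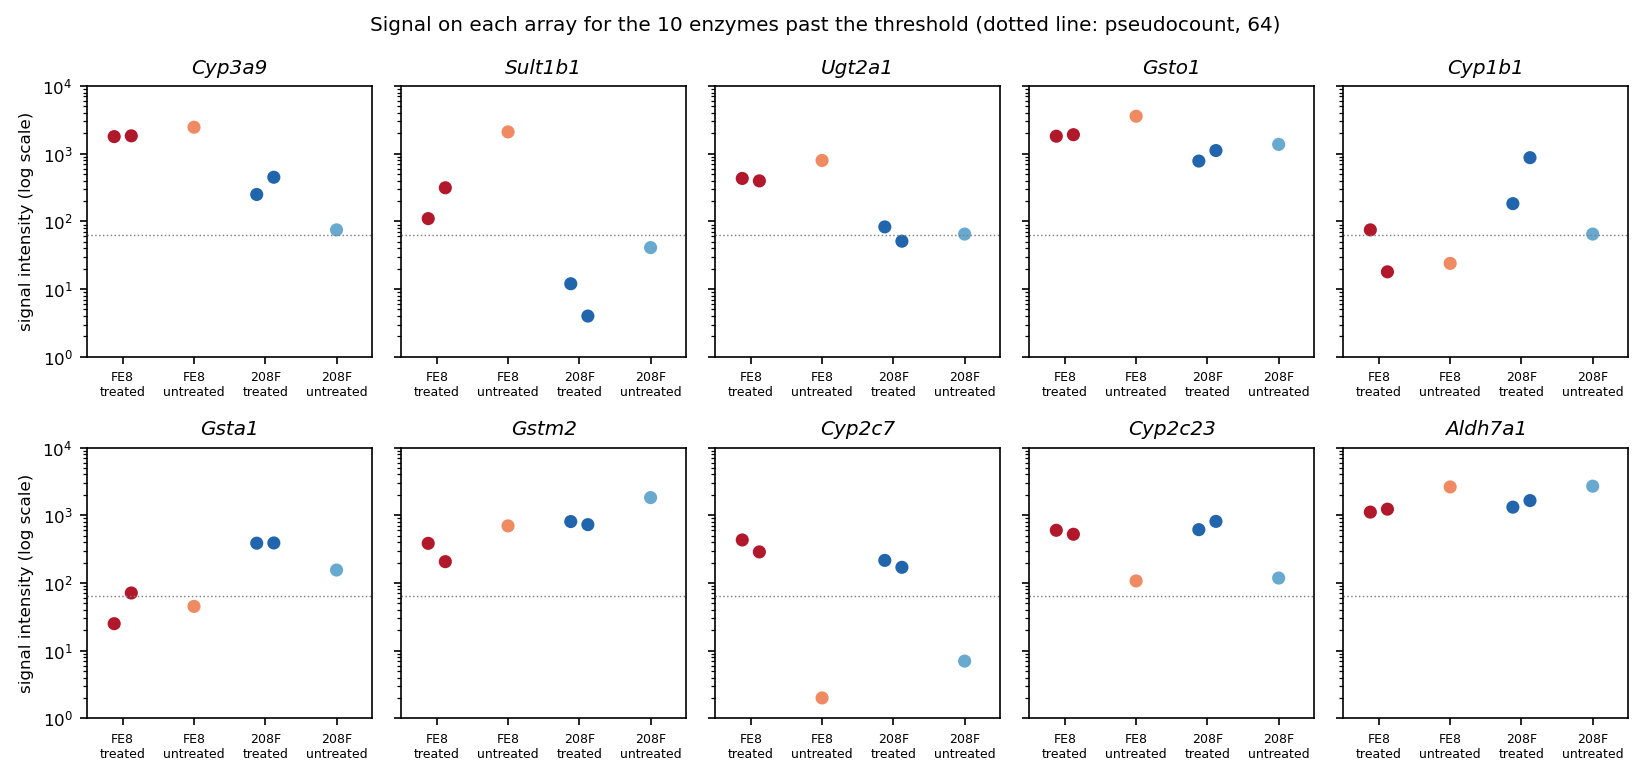
Signal on each of the 6 arrays, on a log axis, for the 10 enzymes called in at least 1 comparison, by group. Cyp3a9, Sult1b1, Ugt2a1 and Gsto1 have all FE8 arrays above all 208F arrays, and Gsta1 and Gstm2 have all FE8 arrays below them. Cyp2c7 and Cyp2c23 have all treated arrays above the untreated ones, and Aldh7a1 has all treated arrays below them. The genes were chosen by calls on the same arrays, and the share of all probe sets that separate in this way was not counted.

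The effect of the drug was asked for next in each line. 2 P450 genes, Cyp2c7 and Cyp2c23, were higher after the drug in both lines, and a further one, Cyp3a9, was higher in 208F. Sult1b1 and the aldehyde dehydrogenase Aldh7a1 were lower after the drug in FE8. In FE8 the 2 higher and 2 lower members were 10% of the 40, against 8.16% of all probe sets (5.06% higher and 3.09% lower), and the medians were 0.07 over the members and 0.08 over all probe sets. In 208F the 3 higher members were 7.5%, against 5.19% of all probe sets (3.59% higher and 1.6% lower), with medians of 0.25 and 0.11. The share of members called was thus near that of all probe sets in both lines.

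Cyp2c7 and Cyp2c23 encode P450s of the subfamily that metabolizes retinoids and arachidonic acid, and the Cyp2c23 enzyme is the epoxygenase of rat kidney. The 300 bases around the start of each gene (250 before and 50 after) are shown because the drug acts on cytosine methylation, which in mammals is found mainly at CpG. They are the windows of RefSeq for GRCr8, and the capitals mark each CpG. Cyp2c7 lies at chr1:247966144-247966443 on the plus strand and Cyp2c23 at chr1:252863018-252863317 on the minus strand.
Cyp2c7: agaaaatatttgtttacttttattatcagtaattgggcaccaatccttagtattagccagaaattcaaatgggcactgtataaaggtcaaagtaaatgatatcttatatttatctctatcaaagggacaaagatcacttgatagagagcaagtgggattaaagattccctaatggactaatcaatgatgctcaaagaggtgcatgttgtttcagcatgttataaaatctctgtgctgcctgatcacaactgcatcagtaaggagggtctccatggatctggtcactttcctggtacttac
Cyp2c23: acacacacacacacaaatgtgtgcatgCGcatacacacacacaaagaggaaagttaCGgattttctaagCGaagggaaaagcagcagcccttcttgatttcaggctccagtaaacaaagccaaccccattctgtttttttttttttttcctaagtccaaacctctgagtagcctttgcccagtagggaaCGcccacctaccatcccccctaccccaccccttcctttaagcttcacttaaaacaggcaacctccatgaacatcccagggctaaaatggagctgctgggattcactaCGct
The Cyp2c7 window holds 0 CpG and the Cyp2c23 window holds 5, and no methylation value was analysed here.

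Cyp2c7 was at 431 and 287 in treated FE8 and 2 in untreated FE8, a log2 difference of 2.66 ± 0.40 (adjusted p = 0.00246). In 208F it was at 215 and 170 after the drug, against 7 without it (1.85 ± 0.40, adjusted p = 0.0229). Both untreated arrays were near 0 and all 4 treated arrays were above them. The adjacent gene Cyp2c6v1 was at 105 and 65 in treated FE8, 40 in untreated FE8, 129 and 56 in treated 208F and 42 in untreated 208F, with drug differences of 0.51 and 0.52 in FE8 and 208F that were not called.

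Cyp2c23 was at 599 and 523 in treated FE8 and 107 in untreated FE8 (1.87 ± 0.35, adjusted p = 0.00715). It was at 612 and 810 in treated 208F and 118 in untreated 208F (2.08 ± 0.35, adjusted p = 0.00575). Both treated FE8 arrays were below both treated 208F arrays, but the line difference was small and not called (-0.30 ± 0.28). That of the untreated arrays was not called either (-0.09 ± 0.40). Of its other 2 probe sets, 1 was called higher in 208F (1.92 ± 0.39, adjusted p = 0.0171) and stood at 1.10 ± 0.39 in FE8 (adjusted p = 0.127), and the other stood at 0.49 in FE8 and 0.18 in 208F, so the probe sets disagreed.

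Cyp3a9 was higher in treated 208F than in untreated 208F by 1.53 ± 0.34 (adjusted p = 0.0268), with the signals given above, and stood at -0.43 ± 0.34 in FE8 (adjusted p = 0.534). Sult1b1 fell by 3.08 ± 0.48 on the log2 scale in FE8 (adjusted p = 0.00271), to 110 and 314 against 2098 without the drug, and stood at -0.55 ± 0.48 in 208F, where it was near 0 on all arrays. The windows of these 2 genes, at chr12:21960111-21960410 on the minus strand for Cyp3a9 and chr14:20771667-20771966 on the plus strand for Sult1b1, are set beside that of Cyp1b1 at chr6:21094315-21094614 on the plus strand, which is rich in CpG.
Cyp3a9: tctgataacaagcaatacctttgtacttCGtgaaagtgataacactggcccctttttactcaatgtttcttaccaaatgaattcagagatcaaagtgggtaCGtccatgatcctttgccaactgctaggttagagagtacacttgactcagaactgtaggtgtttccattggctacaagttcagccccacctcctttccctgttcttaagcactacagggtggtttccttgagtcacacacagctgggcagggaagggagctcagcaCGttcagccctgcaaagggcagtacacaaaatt
Sult1b1: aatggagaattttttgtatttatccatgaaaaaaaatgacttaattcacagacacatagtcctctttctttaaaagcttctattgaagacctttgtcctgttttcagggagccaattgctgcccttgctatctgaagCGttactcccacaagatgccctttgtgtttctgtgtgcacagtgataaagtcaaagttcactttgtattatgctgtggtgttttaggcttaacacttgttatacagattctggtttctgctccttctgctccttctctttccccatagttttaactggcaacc
Cyp1b1: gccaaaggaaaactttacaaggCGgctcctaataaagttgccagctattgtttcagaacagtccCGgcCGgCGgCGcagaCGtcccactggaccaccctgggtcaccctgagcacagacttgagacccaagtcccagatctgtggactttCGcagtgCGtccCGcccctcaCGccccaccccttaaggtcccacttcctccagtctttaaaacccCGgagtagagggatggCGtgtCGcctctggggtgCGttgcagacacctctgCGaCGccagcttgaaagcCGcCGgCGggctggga
The Cyp3a9 window holds 3 CpG, the Sult1b1 window 1 and the Cyp1b1 window 19.

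Aldh7a1 encodes antiquitin, an aldehyde dehydrogenase of lysine breakdown. It was at 1111 and 1228 in treated FE8 and 2614 in untreated FE8 (-1.12 ± 0.28, adjusted p = 0.0312). In 208F it was at 1315 and 1645 with the drug and 2683 without it (-0.84 ± 0.28, adjusted p = 0.122). All treated arrays were below both untreated ones, and its other probe set was also called lower in FE8 (-1.07 ± 0.28, adjusted p = 0.0421). Gstm2 stood at -1.13 ± 0.35 in FE8 and -1.18 ± 0.35 in 208F (adjusted p = 0.0798 and 0.0866), and its other probe set was called lower in 208F (-1.44 ± 0.30, adjusted p = 0.0191). The other probe set of Gsto1 was called lower in FE8, at -1.31 ± 0.32 (adjusted p = 0.0303), where the brighter one stood at -0.92 ± 0.29 (adjusted p = 0.0815). In 208F the 4 probe sets of Cyp1b1 stood between 1.15 and 1.90 and none was called, and of the 3 of Gsta1, at 1.04, 1.36 and 1.88, the last was called (adjusted p = 0.0474).

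Cyp27a1, the mitochondrial sterol hydroxylase, lay just outside the threshold in FE8, at 141 and 197 with the drug and 22 without it (1.43 ± 0.40, adjusted p = 0.0525). It stood at 0.40 ± 0.40 in 208F.

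The GAPDH ratio was higher on all treated arrays than on both untreated ones, and the beta-actin ratio was lower in treated than in untreated 208F. The part of these ratios in the drug differences was not tested. The drug calls also rested on few arrays. Without treated FE8 replicate 1 or 2, the 208F calls were lost for Cyp2c7 (adjusted p = 0.0678 and 0.0675), Cyp2c23 (0.0501 without replicate 1, and just above the threshold without replicate 2) and Cyp3a9 (0.151 and 0.147). The FE8 calls were then lost for Cyp2c23 (0.113 and 0.0864) and Aldh7a1 (0.283 and 0.190), and without replicate 1 for Cyp2c7 (0.0506). The 208F calls of Cyp2c7 and Cyp3a9 were also lost with quantile normalization (0.0530 and 0.109) and the larger pseudocount (0.0812 and 0.108), that of Cyp3a9 with no trend (0.0605), and the FE8 call of Aldh7a1 with quantile normalization (0.0575) and no trend (0.0806). The Sult1b1 call in FE8 held under all 11 alternatives. Without treated 208F replicate 1 or 2, the error came from the FE8 duplicates alone, and more probe sets were called in every comparison. Members gaining a call in these fits are given by their differences alone. In 208F, Gstm2 stood at -1.25 without replicate 1 and -1.11 without replicate 2, and Aldh7a1 at -0.99 without replicate 2. Cyp1b1 stood at 2.86 in 208F without replicate 1, against 1.90 on all arrays (limma adjusted p = 0.143). The differences of Gstm2, Gsto1 and Gstp1 in FE8, and of Gstm2 between the untreated lines, do not use these arrays and did not change. Median scaling lowered the median of all probe sets by 0.109 in FE8 and 0.127 in 208F, and changed the split of 208F calls to 164 higher and 119 lower, against 173 and 77, while the called members kept their direction. With median scaling, Gstm2 was also called lower in FE8 (-1.26, limma adjusted p = 0.0381) and in 208F (-1.34, 0.0350). Gsto1 was then called lower in FE8 (-1.06, limma adjusted p = 0.0474). The epithelial markers moved with the rises of Cyp2c7 and Cyp2c23. Of the 3 measured, 3 were called higher in FE8 (5.06% of all probe sets) and 2 in 208F (3.59% of all). The part of these markers in the result was not tested.

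The effects of the drug in the lines were compared directly by their difference. By limma 0 of 40 members and 3 of all 4818 probe sets passed (0.0623% of all, 0.0208% higher and 0.0415% lower), and 3 members and 364 probe sets had an unadjusted p under 0.05. The share of members with such a p was near that of all probe sets. Of the 3 members, Cyp3a9 stood at -1.96 ± 0.49 (adjusted p = 0.175) and Sult1b1 at -2.53 ± 0.68 (0.210). Aldh3a2 stood at -1.34 ± 0.50 (0.479). For each, the drug difference in FE8 was below that in 208F. Cyp2c7 and Cyp2c23 differed by 0.81 ± 0.57 and -0.21 ± 0.49. Without treated 208F replicate 1, which left 1 treated array in 208F, Cyp3a9 stood at -2.31 and Sult1b1 at -2.45. Cyp1b1 then stood at -2.58, against -1.62 on all arrays. Without replicate 2, Cyp3a9 stood at -1.60 and Sult1b1 at -2.61.

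RefSeq start windows were found for 34 of the 40 enzymes. They held 0 to 24 CpG, with a median of 5 against 7 over all 33469 windows of the table, and 19 of the 34 had 5 or fewer, against 43.7% of all windows. The core of the element bound by the aryl hydrocarbon receptor (GCGTG, either strand) was found in 7 of the 34 (Aldh3a2, Aldh7a1, Cyp1b1, Cyp2b2, Gsta4, Gstm5 and Gstp1), against 29.7% of all windows. Each such match contains a CpG. The core of the antioxidant response element bound by NRF2 (TGACNNNGC, either strand) was found in 3 of the 34 (Gsta1, Gstm5 and Gstp1), against 12.1% of all windows. Of the members called after the drug in at least 1 line, Cyp2c7 had 0 CpG, Sult1b1 had 1, Cyp3a9 had 3, Cyp2c23 had 5 and Aldh7a1 had 16.

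**Figure D4:**
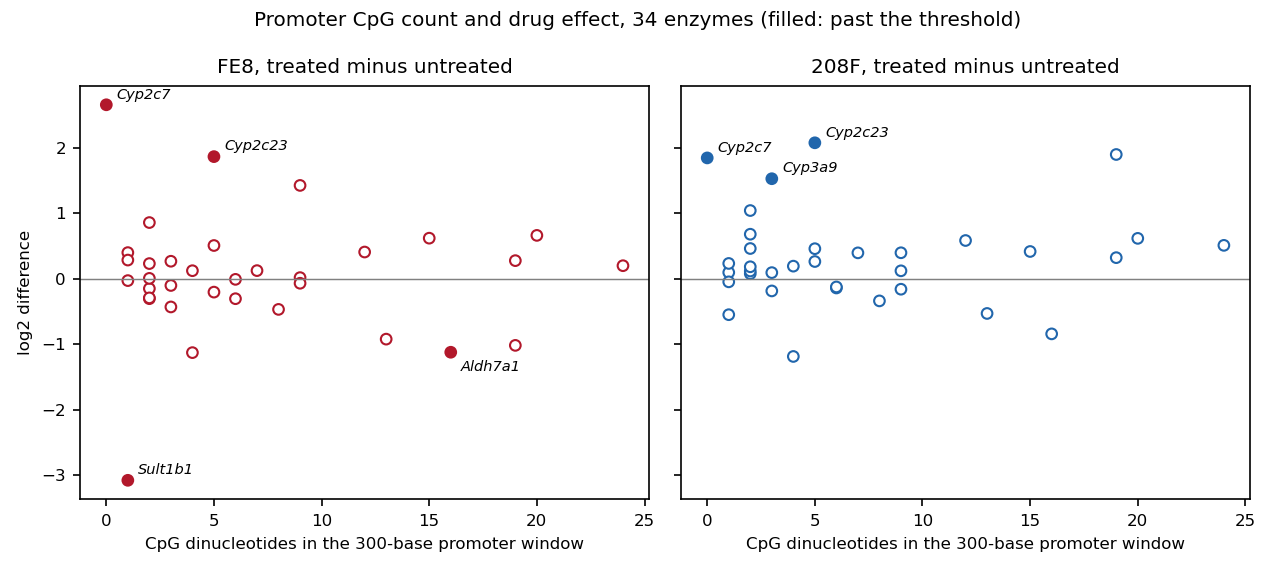
Log2 drug differences of the 34 enzymes with a RefSeq start window, for FE8 and for 208F, against the number of CpG in 300 bases. Cyp2c7 with 0 CpG and Sult1b1 with 1 lie at opposite ends in FE8, at 2.66 and -3.08, and genes with 12 or more CpG lie between -1.12 and 1.90.

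Of the 2 brightest enzymes of each family, Cyp3a9, Sult1b1, Ugt2a1 and Aldh7a1 were called, as described above, and 6 were not, of which Ugt2b is given above. Gstp1, the pi-class glutathione transferase, was at 7279 and 6843 in treated FE8, 4564 in untreated FE8, 10394 and 8030 in treated 208F and 6819 in untreated 208F, with all 4 differences between -0.57 and 0.62 and none called. The other probe set of Gstp1 was not called either. It stood at -0.91 ± 0.34 between the untreated lines (adjusted p = 0.192). After the drug in FE8 it stood at 0.90 ± 0.29 (adjusted p = 0.0885). Gstm5, another mu-class enzyme, was at 2186 and 2961 in treated FE8, 1582 in untreated FE8, 1742 and 2157 in treated 208F and 1240 in untreated 208F. Treated arrays of Gstm5 were above the untreated one in both lines, by 0.66 ± 0.29 and 0.62 ± 0.29 in FE8 and 208F, and neither was called (adjusted p = 0.218 and 0.301). Aldh2, the mitochondrial enzyme that clears acetaldehyde, was at 719 and 765 in treated FE8, 668 in untreated FE8, 993 and 1090 in treated 208F and 731 in untreated 208F.

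Cyp2d4, of the subfamily that metabolizes many amine drugs, was at 1018 and 738 in treated FE8, 855 in untreated FE8, 999 and 674 in treated 208F and 924 in untreated 208F. Sult5a1, a sulfotransferase, was at 757 and 503 in treated FE8, 561 in untreated FE8, 637 and 497 in treated 208F and 412 in untreated 208F. The differences of Aldh2 lay between -0.46 and 0.47, those of Cyp2d4 between -0.16 and 0.07 and those of Sult5a1 between 0.12 and 0.40, and none was called.

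The other 24 enzymes were called in no comparison and were not among the 2 brightest of their family. The 11 Cyp genes among them lay between 8 and 595 on every array with differences of -0.66 to 1.43, and the 4 Sult genes between 2 and 209 with differences of -0.36 to 1.15. The 4 Aldh genes lay between 16 and 567 (-1.02 to 0.94), the 3 Gst genes between 54 and 1433 (-1.12 to 0.50) and the 2 Ugt genes between 29 and 135 (-0.50 to 0.68). The P450s Cyp2a1, Cyp2a2, Cyp2b2, Cyp2b15, Cyp2e1 and Cyp4a8 belonged to this group. The P450s Cyp1b1, Cyp2c7, Cyp2c23 and Cyp3a9 were called, as given above. The 2 probe sets of Aldh3a2, the fatty aldehyde dehydrogenase, went opposite ways after the drug in FE8, at -1.02 and 0.72, and neither was called.

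Other genes of the pathway were read from fixed lists. Of 20 receptors and transcription factors of the xenobiotic response, 5 were measured (Arnt, Rxrb, Nfe2l2, Cebpb and Nr1h3) and none passed in any comparison. Among 13 measured other phase I and reductase enzymes, 3 rose after the drug in FE8 and 2 in 208F, where 5.06% and 3.59% of all probe sets were called higher. The list medians were 0.19 and 0.31, against 0.08 and 0.11 over all probe sets. The quinone reductase Nqo1 was at 4594 and 5193 in treated FE8 and 1421 in untreated FE8 (1.74 ± 0.26, adjusted p = 0.00234), and at 5744 and 5334 in treated 208F and 2009 in untreated 208F (1.43 ± 0.26, adjusted p = 0.00917). Ptgr1, a reductase of prostaglandins and leukotrienes, rose by 2.37 ± 0.46 in FE8 and 3.53 ± 0.46 in 208F, and the xanthine oxidoreductase Xdh by 2.17 ± 0.39 in FE8. Xdh was also higher in treated FE8 than in treated 208F (1.90 ± 0.32, adjusted p = 0.00318). The epoxide hydrolase Ephx1 was lower in FE8 than in 208F without the drug (-2.18 ± 0.43, adjusted p = 0.0106) and with it (-1.32 ± 0.30, adjusted p = 0.0222).

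Of 11 measured genes of electron donors and cofactor supply, 1 rose after the drug in FE8, where 5.06% of all probe sets were called higher. It was the glutathione synthesis subunit Gclc (1.46 ± 0.32, limma adjusted p = 0.0195), and none passed in 208F or between the lines. The P450 reductase Por lay between 790 and 1201 on all arrays. Of 5 measured other conjugating enzymes, 1 was higher in treated FE8 than in treated 208F, the microsomal transferase Mgst2 (1.07 ± 0.22, limma adjusted p = 0.0126). Of all probe sets, 3.42% were called higher there. Of 4 measured transporters, 1 was called higher in untreated FE8 (3.09% of all probe sets). After the drug, 1 was called higher in FE8 (5.06% of all) and 1 in 208F (3.59% of all). In treated FE8 against treated 208F, 3 were called higher (3.42% of all), and the list median was 1.39. The 3 were the efflux pump genes Abcb1a (1.45 ± 0.37, adjusted p = 0.0359), Abcc2 (1.33 ± 0.32, adjusted p = 0.0300) and Abcb1b (1.55 ± 0.21, adjusted p = 0.000861). Abcb1b was the one called in the other comparisons as well. It was at 5540 and 5566 in treated FE8, 890 in untreated FE8, 1885 and 1830 in treated 208F and 135 in untreated 208F, and rose by 2.56 ± 0.26 in FE8 and 3.27 ± 0.26 in 208F.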

How the data were processed

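RNA of 6 samples of cultured cells was hybridised to 6 Affymetrix rat arrays, 1 per sample. The deposited values are intensities on a linear scale, 1 signal per probe set, made by the authors with MAS5, per the submitters' processing notes; the MAS5 settings are not given in the sources used here. Of 4847 probe sets, 29 controls were left out and 4818 tested. Genes were named from the platform annotation, updated through the RefSeq table of GRCr8, which also gave gene order and start windows.

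Values were transformed to log2(signal + 64), the 64 being the 10th percentile of all tested signals. A limma fit (3.58.1, R 4.3.3) of 4 group means with an intensity trend gave moderated tests with 2 residual and 9.02 prior degrees of freedom and Benjamini-Hochberg adjustment over all probe sets, threshold 0.05. It was tested on simulated data. P-values measure the spread between duplicates, which may be technical, and the number of arrays limits the precision.

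Signals per array are given for members called in any comparison and for the 2 brightest of each family; of each fixed list, at most 4 called genes per direction were named. The members, lists and tests were chosen with earlier results of these data known. Alternatives were a smaller (16) and a larger pseudocount, a mean signal of at least 200, no trend, median scaling, quantile normalization, other choices of probe set, a replicate block, and leaving out each treated array.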

Additional observations from a re-analysis of the deposited data

Results flagged for a closer look

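17 probe sets map to several genes of these families and are outside the 40 members. A probe set of 8 Ugt1a genes, which encode glucuronosyltransferases of bilirubin and phenols and share their last exons, was at 1193 and 1267 in treated FE8, 2463 in untreated FE8, 1267 and 1287 in treated 208F and 746 in untreated 208F. It was higher in untreated FE8 than in untreated 208F by 1.64 (limma adjusted p = 0.00894) and differed by -0.97 between treated and untreated FE8 (adjusted p = 0.0496). In 208F the drug difference was 0.73 and was not called (adjusted p = 0.167), and the difference between the lines in this effect was not called either (adjusted p = 0.117). The other 3 probe sets of the same 8 genes passed no test. They stood at 0.75, 0.78 and 0.64 between the untreated lines and at 0.07, -0.32 and 0.35 after the drug in FE8. The probe sets shared by only Ugt1a1, Ugt1a2, Ugt1a3, Ugt1a6, Ugt1a7c and Ugt1a8 passed no test either. They stood between -0.96 and 0.47 between the untreated lines. After the drug in FE8 all of them were above the untreated array, at 0.20 to 1.05, so the probe sets disagreed.

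Of 3 probe sets shared by Cyp2c7 and Cyp2c7l1, 2 were called higher after the drug in both lines. The first was at 554 and 518 in treated FE8 and 57 in untreated FE8 (2.31, adjusted p = 0.0028), and at 406 and 366 in treated 208F and 12 in untreated 208F (2.56, adjusted p = 0.00215). The second was at 249 and 280 in treated FE8 and 14 in untreated FE8 (2.07, adjusted p = 0.00688), and at 215 and 193 in treated 208F and 5 in untreated 208F (1.96, adjusted p = 0.0128). The last stood at 1.39 in FE8 (adjusted p = 0.0855) and 1.37 in 208F (adjusted p = 0.122) and was not called. Which of these genes the shared probe sets read was not tested.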

How the results depend on the processing

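Of 18 called member results, 4 kept their call under all 11 alternatives: Cyp3a9, Sult1b1 and Ugt2a1 between the untreated lines and Sult1b1 after the drug in FE8. Of 62 uncalled results of the 16 genes given by array, 10 were called under at least 1 alternative, and no called result changed sign.

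Members called between the treated lines numbered 7, and 4 with a mean signal of at least 200, 4 of the 21 genes that have a probe set with no name ending of any kind, and 13 of the 58 probe sets. After the drug in FE8 they numbered 4, and 7 with median scaling and 2 without endings. In 208F they numbered 3, and 1 with the larger pseudocount, 1 with quantile normalization, 1 without endings and 6 of the 58. Over all probe sets, the filter gave 239 calls between the treated lines against 341, and median scaling gave 445 in FE8 against 393. The larger pseudocount gave 208 calls in 208F against 250. Quantile normalization gave 257 calls in FE8 against 393, and 164 in 208F against 250. For the difference between drug effects, 3 calls became 27 with median scaling, 10 with a pseudocount of 16, 6 with the larger one, and 0 with the filter, without the trend, with quantile normalization and with the block.

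Leaving out each treated array in turn gave 109 to 541 calls (members 3 to 5) between untreated lines, 96 to 530 (1 to 7) between treated lines, 76 to 783 (1 to 8) for the drug in FE8, 75 to 663 (0 to 6) in 208F and 0 to 206 (0 to 3) for the difference. A lone array left in a group was assumed to vary like the remaining duplicates, and leaving out a treated FE8 array gave the lower counts.

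The duplicates of the lines share only a number. Deviations of same-numbered arrays correlated at 0.319 over probe sets. With the replicate block, 285, 325, 429, 216 and 0 probe sets were called in the 5 comparisons and 4, 6, 4, 3 and 0 members, and the call lost was Cyp1b1 between the treated lines. The untreated groups had 1 array each, which sets the main limit on every comparison that uses them. The values used here carry no detection call, so no low signal is read as absence.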

Other observations

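Genes that handle the same small lipids as these enzymes were read from 3 further fixed lists. Of 5 measured retinoid genes, 2 rose after the drug in FE8 and 1 in 208F, where 5.06% and 3.59% of all probe sets were called higher. The medians were 0.35 and 0.30, against 0.08 and 0.11 over all probe sets. Crabp2, a carrier of retinoic acid to its nuclear receptors, was at 673 and 809 in treated FE8 and 47 in untreated FE8 (2.85 ± 0.34, limma adjusted p = 0.000534), and at 700 and 739 in treated 208F and 35 in untreated 208F (2.98 ± 0.34, adjusted p = 0.000513). Its relative Crabp1 was lower in FE8 than in 208F without the drug (-1.82 ± 0.34, adjusted p = 0.00871) and with it (-1.52 ± 0.24, adjusted p = 0.00222). The retinol-binding protein gene Rbp2 rose in FE8 by 2.10 ± 0.39 (adjusted p = 0.00715) and was higher in treated FE8 than in treated 208F (1.39 ± 0.32, adjusted p = 0.0221).

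Of 6 measured steroid and vitamin D genes, 1 was called higher in FE8 in each line comparison, where 3.09% and 3.42% of all probe sets were called higher, and 1 after the drug in 208F (3.59% of all). Hsd11b1, the enzyme that regenerates active glucocorticoid, was at 332 and 503 in treated FE8 and 716 in untreated FE8, against 118 and 74 in treated 208F and 82 in untreated 208F, so all FE8 arrays were above all 208F arrays. Its line differences were 2.42 ± 0.46 without the drug (adjusted p = 0.00924) and 1.58 ± 0.32 with it (adjusted p = 0.0115). The glucocorticoid receptor Nr3c1 rose in 208F by 1.80 ± 0.38 (adjusted p = 0.0209). Of 7 measured eicosanoid genes, 2 rose after the drug in FE8 (5.06% of all probe sets were called higher), the cyclooxygenase Ptgs2 (1.24 ± 0.32, adjusted p = 0.0399) and the secreted phospholipase Pla2g2a (2.70 ± 0.46, adjusted p = 0.00432). In 208F 1 rose (3.59% of all), the cyclooxygenase Ptgs1 (1.85 ± 0.34, adjusted p = 0.00906). Ptgs1 was also higher in untreated FE8 than in untreated 208F (1.68 ± 0.39, adjusted p = 0.0262), and Pla2g2a in treated FE8 than in treated 208F (2.20 ± 0.37, adjusted p = 0.00343).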
